A study of Homo sapiens with 14 samples.

Results

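Matrin 3 was mapped in Jurkat cells, a human T cell leukemia line, and 1691 of its 24927 regions were called in both of the Matrin 3 peak lists. Peaks of the 2 lists on chromosomes 1 to 22 and X were merged wherever they shared at least 1 bp, and a merged region was kept when each list gave it a peak. The kept regions were 6.78% of all regions. A further 22866 regions came from replicate 1 only and 370 from replicate 2 only. The regions were selected on the Matrin 3 calls themselves, so their Matrin 3 signal is described here without a test.

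The assay was CUT&Tag, in which an antibody brings a transposase to its target, and the transposase inserts sequencing adapters into the DNA around it. The 14 libraries were made from Jurkat cells: 3 CTCF libraries and 2 H3K27ac libraries with an shRNA against SATB1 (shSATB1, SATB1 knockdown), 3 CTCF and 2 H3K27ac libraries with a control shRNA (shCtrl), 2 SATB1 libraries with shCtrl, and 2 Matrin 3 libraries whose labels give no shRNA. No label says that the replicates were separate cultures, so a p-value here reflects library-to-library spread that may be only technical. Of the fixed marker lists, T cell receptor signalling had 17 of 20 genes with H3K27ac called at either end. The B cell list had 5 of 12, the erythroid and megakaryocyte list 3 of 12 and the myeloid list 2 of 14. The epithelial and stromal list had 1 of 12 and the neuronal list 0 of 12. Across the genome, 7812 of 19974 coding genes carried such a call, a share close to that of the B cell list.

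Matrin 3 is an abundant protein of the inner nuclear matrix that binds RNA and DNA and takes part in splicing and other steps of RNA processing. SATB1 is a chromatin organizer with high levels in thymocytes and T cells, CTCF is the zinc finger protein that anchors chromatin loops together with cohesin, and H3K27ac is an acetylation of histone H3 found at active promoters and enhancers. CUT&Tag with a Matrin 3 antibody reports where the protein lies close to accessible DNA and does not show that it touches the DNA itself.

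Of the regions at gene ends, 6 promoters are shown because the part shared by both Matrin 3 lists lies over them. NDUFA11, PDCD10 and KLHL26 are among the strongest regions at gene ends, all with SATB1. USF3, PSAT1 and NDUFS8 are the strongest at gene ends without SATB1. The sequences are those of RefSeq on GRCh38.p14 and run 5′ to 3′ along the gene, 250 bases before its start and 50 after. NDUFA11 lies at chr19:5903741-5904040 on the minus strand, PDCD10 at chr3:167734843-167735142 on the minus strand and KLHL26 at chr19:18636778-18637077 on the plus strand. USF3 lies at chr3:113696593-113696892 on the minus strand, PSAT1 at chr9:78296875-78297174 on the plus strand and NDUFS8 at chr11:68030431-68030730 on the plus strand. Capitals mark a match, on either strand, to any of 9 motifs searched: the CCAAT box CCAAT, the GC box GGGCGG, ETS CCGGAAG, NRF1 GCATGCGC, YY1 AAGATGGCG, ZNF143 ACTACAA, CRE TGACGTCA, the TATA box TATAAA and a core of the CTCF motif AGGGGGCGC.
NDUFA11: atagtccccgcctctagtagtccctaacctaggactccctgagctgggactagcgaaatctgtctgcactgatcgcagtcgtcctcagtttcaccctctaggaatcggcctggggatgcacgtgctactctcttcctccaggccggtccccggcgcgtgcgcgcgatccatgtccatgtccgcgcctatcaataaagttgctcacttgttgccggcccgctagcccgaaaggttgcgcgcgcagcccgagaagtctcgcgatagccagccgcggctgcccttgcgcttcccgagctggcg
PDCD10: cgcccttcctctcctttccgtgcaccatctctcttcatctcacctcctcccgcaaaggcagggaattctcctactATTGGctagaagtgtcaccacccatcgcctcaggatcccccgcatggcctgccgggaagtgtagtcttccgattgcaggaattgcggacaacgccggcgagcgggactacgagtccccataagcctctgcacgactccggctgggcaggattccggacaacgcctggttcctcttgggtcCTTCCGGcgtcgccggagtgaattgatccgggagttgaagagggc
KLHL26: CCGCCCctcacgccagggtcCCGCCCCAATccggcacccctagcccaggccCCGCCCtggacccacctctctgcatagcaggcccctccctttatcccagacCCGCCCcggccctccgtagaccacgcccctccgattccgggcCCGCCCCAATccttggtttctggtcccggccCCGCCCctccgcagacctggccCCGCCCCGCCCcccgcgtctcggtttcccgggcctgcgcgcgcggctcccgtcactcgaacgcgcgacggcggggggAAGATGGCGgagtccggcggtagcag
USF3: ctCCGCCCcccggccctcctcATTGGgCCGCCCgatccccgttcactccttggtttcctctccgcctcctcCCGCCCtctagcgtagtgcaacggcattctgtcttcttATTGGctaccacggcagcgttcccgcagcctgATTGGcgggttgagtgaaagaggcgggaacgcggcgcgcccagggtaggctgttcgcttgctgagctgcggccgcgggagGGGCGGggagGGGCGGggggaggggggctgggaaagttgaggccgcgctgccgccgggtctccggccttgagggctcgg
PSAT1: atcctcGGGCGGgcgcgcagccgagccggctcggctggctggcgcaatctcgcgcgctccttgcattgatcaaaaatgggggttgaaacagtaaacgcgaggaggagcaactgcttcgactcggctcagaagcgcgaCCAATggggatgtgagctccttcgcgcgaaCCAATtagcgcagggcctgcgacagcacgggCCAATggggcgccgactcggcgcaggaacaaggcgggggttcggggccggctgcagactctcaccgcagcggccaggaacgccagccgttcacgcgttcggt
NDUFS8: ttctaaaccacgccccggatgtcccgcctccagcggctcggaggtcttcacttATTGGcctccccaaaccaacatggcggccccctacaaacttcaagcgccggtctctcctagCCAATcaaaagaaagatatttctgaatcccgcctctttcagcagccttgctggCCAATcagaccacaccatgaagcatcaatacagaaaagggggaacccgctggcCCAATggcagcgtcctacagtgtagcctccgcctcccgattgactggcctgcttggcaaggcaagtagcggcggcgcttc
The NDUFA11 promoter held none of the 9 motifs. The PDCD10 promoter held 1 CCAAT box and 1 ETS match. KLHL26 had 8 GC boxes, 2 CCAAT boxes and 1 YY1 match, and its CCAAT boxes overlap a GC box. USF3 had 5 GC boxes and 3 CCAAT boxes, PSAT1 had 1 GC box and 3 CCAAT boxes, and NDUFS8 had 4 CCAAT boxes. A match is a run of letters and not a measured binding site.

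The Matrin 3 lists differed widely. Replicate 1 held 24566 peaks with a median maximum signal of 25 and a median width of 1110 bp, and replicate 2 held 2105 peaks with 9 and 535 bp. No called peak had a total signal below 3945 in replicate 1 or below 1372 in replicate 2. Depth is unknown because the deposited lists hold only called peaks. The regions took in 6.92% of the replicate 1 peaks and 82.4% of the replicate 2 peaks. The SATB1 lists were unusually alike: 40.8% of the peaks of the shorter list had the same start in the other, against 0.143% to 1.03% between replicates of the other targets. They were therefore read as 1 sample, with no spread.

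Peaks of replicate 2 fell mostly on the strongest peaks of replicate 1. Of the 2486 replicate 1 peaks in its top 10% by maximum signal, with maxima of at least 73, 1233 (49.6%) were in replicate 2. The share was 11.3% for peaks with maxima of 50 to 72 and 1.16% for those of 5 to 12. It was smallest, 0.202%, for maxima of 16 to 18. Over the regions, the median maximum was 106 in replicate 1 and 9 in replicate 2, and Spearman's rho between the maxima was 0.570 over 1691 regions, a description that includes many ties at small whole numbers in replicate 2. The maxima of the lists lay a median of 52 bp apart, and 72.1% of regions had them within 100 bp. Just inside the rule was a region at TRIT1, where the peaks shared 38 bp, and just outside it were replicate 2 peaks 172 bp from a replicate 1 peak in EGFR and 392 bp away in BRAF.

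**Figure D1:**
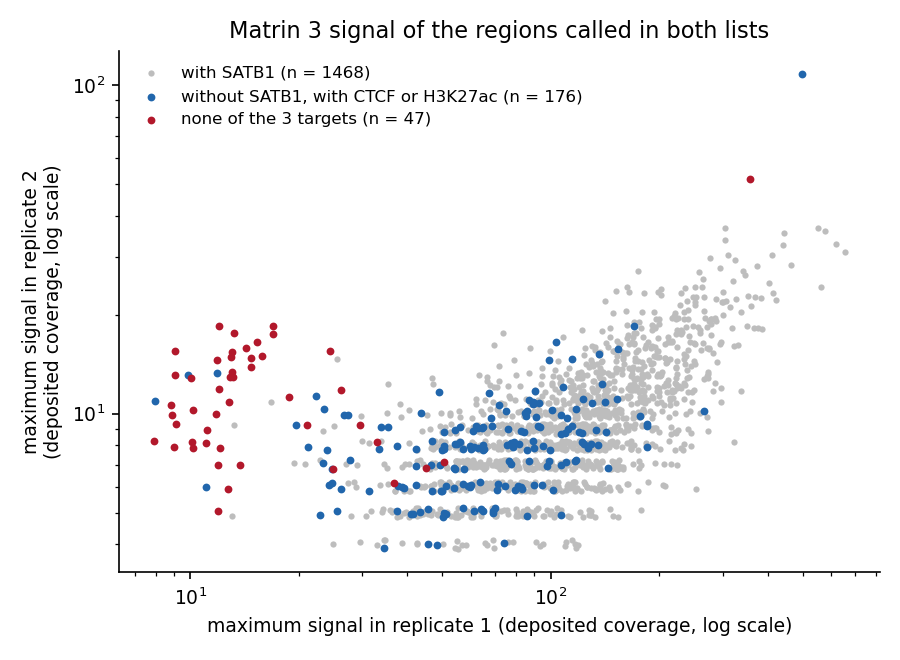
Maximum Matrin 3 signal of each region called in both lists, replicate 1 on the x axis and replicate 2 on the y axis, as deposited coverage on log scales with a small shift to separate ties; colours give the other targets. The 47 regions with none of the 3 targets lie mostly at the left, with a median maximum of 13 in replicate 1 and 11 in replicate 2, and the 2 regions at the upper right lie over mitochondrial pseudogenes of chromosome 1.

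The regions lay mostly at gene ends and over the other targets. A gene end, meaning either annotated end of a protein-coding gene within 2 kb, was found at 1220 of 1691 regions (72.1%, 95% Wilson interval 70.0% to 74.2%), where the share over all Matrin 3 regions was 37.2%. The share was 35.1% over regions of replicate 1 only and 7.30% over regions of replicate 2 only. A further 328 regions (19.4%) lay inside genes away from their ends and 143 (8.46%) outside genes. All intervals of shares cover counting error only.

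CTCF, called in at least 2 of 3 shCtrl lists, lay over 1626 regions (96.2%, interval 95.1% to 97.0%, against 72.4% over all Matrin 3 regions). H3K27ac, called in both shCtrl lists, lay over 1503 (88.9%, interval 87.3% to 90.3%, against 63.3%). SATB1, called in both of its lists, lay over 1468 (86.8%, interval 85.1% to 88.3%, against 45% of all Matrin 3 regions). Over regions of replicate 1 only, these shares were 71.7% for CTCF, 62.4% for H3K27ac and 42.6% for SATB1. All 3 targets together lay over 1359 regions (80.4%), against 29.4% of the regions of replicate 1 only. Regions of replicate 2 only carried CTCF in 5.14%, H3K27ac in 1.35% and SATB1 in 0.270%.

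**Figure D2:**
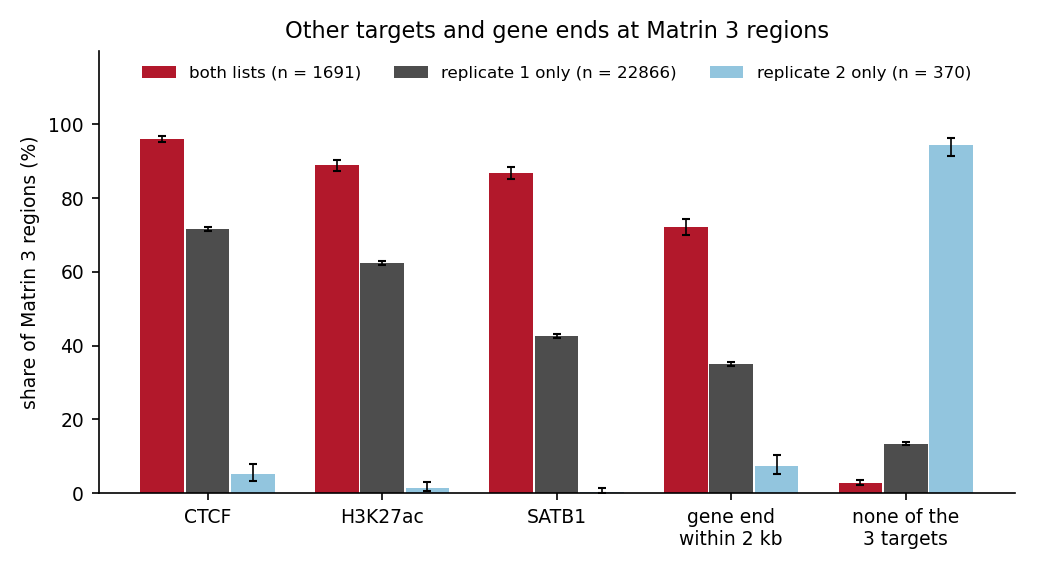
Share of Matrin 3 regions (y axis, %) that carry each target or a gene end, for regions called in both lists, in replicate 1 only and in replicate 2 only; bars are shares and error bars 95% Wilson intervals of counting error. SATB1 shows the widest step between the first sets, 86.8% in both lists and 42.6% in replicate 1 only, and 94.3% of regions of replicate 2 only carry none of the 3 targets.

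Part of these gaps went with rank in replicate 1. Within its top 10% by maximum signal, 80.0% of the 1233 regions of both lists and 71.7% of the 1253 regions of replicate 1 only lay at a gene end. CTCF lay over 99.7% of the regions of both lists and 98.6% of those of replicate 1 only. H3K27ac lay over 92.8% and SATB1 over 93.3% of the regions of both lists, against 86.7% and 78.3% of the regions of replicate 1 only. The gap in SATB1 was thus the widest of the 4 measures within this top 10%. The sets still differed in rank there, with median replicate 1 maxima of 130 for both lists and 90 for replicate 1 only. This and later comparisons in the top 10% therefore do not fully match rank.

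Peak maxima of the other targets lay close to those of Matrin 3. Measured from the replicate 1 maximum, the median distance over the regions was 36 to 42 bp in the 3 CTCF shSATB1 libraries and 28 to 32 bp in the 3 CTCF shCtrl libraries. For H3K27ac it was 50 and 51 bp in the shSATB1 libraries and 54.5 and 61 bp in the shCtrl libraries. For SATB1 it was 47 bp in each library. Over regions of replicate 1 only, every library lay farther away, with medians of 60 to 100 bp.

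The regions were broad. Their median width was 1538 bp (quartiles 1211 to 1994.5 bp), against 1084.5 bp for regions of replicate 1 only and 435.5 bp for regions of replicate 2 only. The width comes from replicate 1: the part shared by both lists had a median of 550 bp. Of the 5 widest regions, 4 lay inside CDK6, which encodes a kinase of the G1 phase of the cell cycle. They spanned 28410, 22567, 22447 and 9771 bp, and all carried SATB1, CTCF and H3K27ac. Their maxima in replicate 1 were 69, 217, 36 and 47, and in replicate 2 they were 7, 12, 5 and 13. The remaining one, 18443 bp inside the receptor kinase gene MET, carried none of the targets and had maxima of 15 and 16.

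The strongest regions at gene ends lay at genes of varied function, and all 10 carried SATB1, with CTCF and H3K27ac called in every library of both arms. Over all 1220 regions at gene ends, SATB1 was at 89.1% and all 3 targets together at 83.5%. NDUFA11, a subunit of mitochondrial complex I, had a maximum of 539 in replicate 1 and 36 in replicate 2, and its region also reached VMAC. The region shared by FHIP1B, a component of a vesicle transport complex, and CNGA4, a cyclic nucleotide-gated channel subunit, had maxima of 567 and 35. PDCD10, a gene of inherited cerebral cavernous malformations, shares a region with SERPINI1, an inhibitor of serine proteases in neurons, with maxima of 443 and 35. KLHL26, of the kelch-like family, had 307 and 36. EEPD1 had 621 and 34.

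GSK3B, the kinase that marks beta-catenin for degradation, had the highest replicate 1 maximum of any region, 659, with 31 in replicate 2. The region of RRAS, a small GTPase, and SCAF1 had 300 and 33. SLC2A8, a sugar transporter, had 323 and 30. SP1, the transcription factor that binds GC boxes, had 316 and 30, and ELL, an elongation factor of RNA polymerase II, had 457 and 28. The order of these regions differed between the lists.

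Outside genes and their ends, the strongest region was at chr7:25861629-25862926, with maxima of 416 in replicate 1 and 31 in replicate 2. The next, at chr3:125915712-125916559, had 250 and 22. The 5 strongest of this kind carried all 3 targets, and the called share over the 143 regions outside genes was 91.6% for CTCF, 85.3% for H3K27ac and 87.4% for SATB1. These shares lay near those of the regions as a whole.

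The highest ranks of all belonged to 2 regions within LOC102724250 on chromosome 1. The region at chr1:633489-634497 had maxima of 497 in replicate 1 and 104 in replicate 2, the highest in replicate 2. The region at chr1:629839-630386 had 355 and 51. Both overlap copies of mitochondrial genes, RefSeq pseudogenes such as MTATP6P1 and MTND2P28, so reads from mitochondrial DNA and from these copies cannot be told apart here. The peaks of the lists shared only 152 and 108 bp in them.

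Gene starts could be placed for the 15812 of 19974 protein-coding genes with a RefSeq promoter entry, and 1634 regions lay on chromosomes with such entries. Of these, 1073 (65.7%) had a start within 2 kb, against 28.9% of the regions of replicate 1 only. At least 2 starts lay within that distance at 211 regions (12.9%, against 3.75%), and a divergent pair, with starts on opposite strands within 1 kb, at 152 (9.30%, against 2.47%). In the top 10% of replicate 1 a divergent pair lay at 10.8% of the regions of both lists and 7.27% of those of replicate 1 only. There a start lay within 2 kb at 73.3% and 65.0%, and at least 2 starts at 14.9% and 10.1%, so part of these gaps went with rank. The replicate 1 maximum lay upstream of the start in 879 of 1058 regions (83.1%), at a median of -125 bp (quartiles -200.75 to -59 bp).

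**Figure D3:**
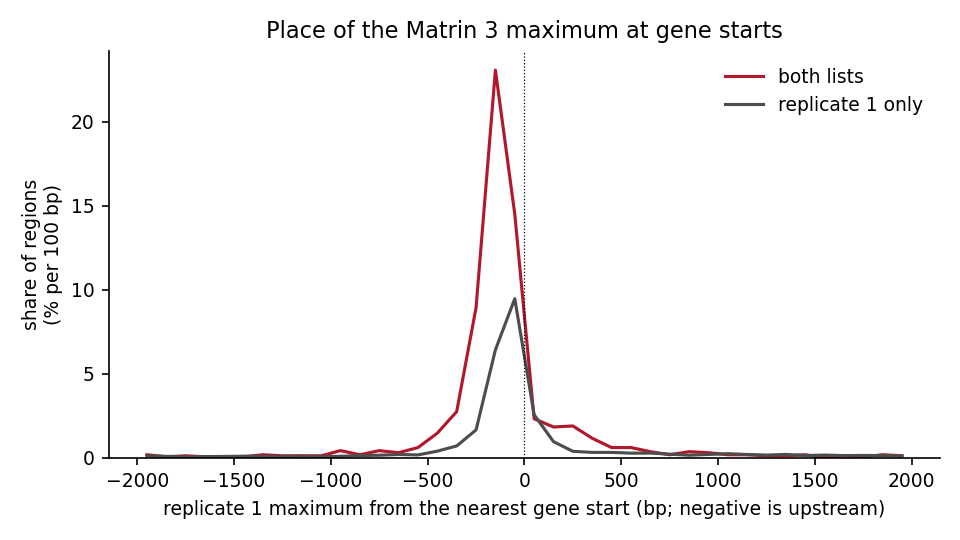
Distance of the replicate 1 Matrin 3 maximum from the nearest gene start (x axis, bp, negative upstream) as a share of all regions of each set (y axis, % per 100 bp). In regions of both lists the highest bin, 200 to 100 bp upstream, holds 23.1% of the regions.

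The CCAAT box, which the trimeric factor NF-Y binds, differed most between regions of both lists and of replicate 1 only, in percentage points and without matching rank. At least 1 CCAAT was found in 694 of 1223 promoters over the regions (56.7%), against 37.0% of the 6067 promoters over regions of replicate 1 only and 36.3% of all promoters with an entry. At least 2 were found in 31.5%, against 13.8% over regions of replicate 1 only. The share was 57.2% over regions with SATB1 and 52.2% over regions without it. The boxes lay at a median of -107 bp from the start, and the Matrin 3 maximum lay a median of 42 bp from the nearest one. Over regions of replicate 1 only these medians were -91 bp and 44 bp, so closeness to a box was much the same there.

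The CCAAT share moved with rank, and was as high under the strongest SATB1 peaks. In the top 10% of replicate 1 it was 60.5% over regions of both lists and 55.1% over regions of replicate 1 only. Promoters over the top 10% of each SATB1 list had CCAAT in 60.5% and 63.2%. In the other targets the top 10% of the lists gave 41.3% to 42.6% for CTCF shSATB1, 40.7% to 41.8% for CTCF shCtrl, 42.4% and 43.0% for H3K27ac shSATB1, and 37.6% and 38.5% for H3K27ac shCtrl. The 2 SATB1 lists count as 1 sample.

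Of the other motifs, the GC box was in 78.4% of promoters over the regions, against 73.3% over regions of replicate 1 only and 58.5% of all. NRF1 matched 7.44% (6.77% over replicate 1 only, 4.26% of all), ZNF143 5.23% (4.42% and 3.15%), YY1 4.91% (4.93% and 2.74%) and CRE 2.94% (3.84% and 2.59%). ETS matched 15.9%, fewer than the 23.5% over regions of replicate 1 only and near the 14.2% of all. In the top 10% of replicate 1 the ETS share was 15.3% over regions of both lists and 20.8% over regions of replicate 1 only, a gap about as wide as that of CCAAT at this rank. The TATA box matched 3.03% (5.09% and 9.64%) and the core of the CTCF motif 1.55% (2.82% and 2.50%). So 19 of the 1223 promoters held that CTCF core. CTCF peaks were called over 99.4% of the regions at gene ends, a different set that is wider than these promoters. The search took an exact run of letters in 300 bases, so it cannot show whether CTCF sites lie under those peaks. Median GC content was 64.7% over the regions, 65.7% over replicate 1 only and 62.7% over all.

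**Figure D4:**
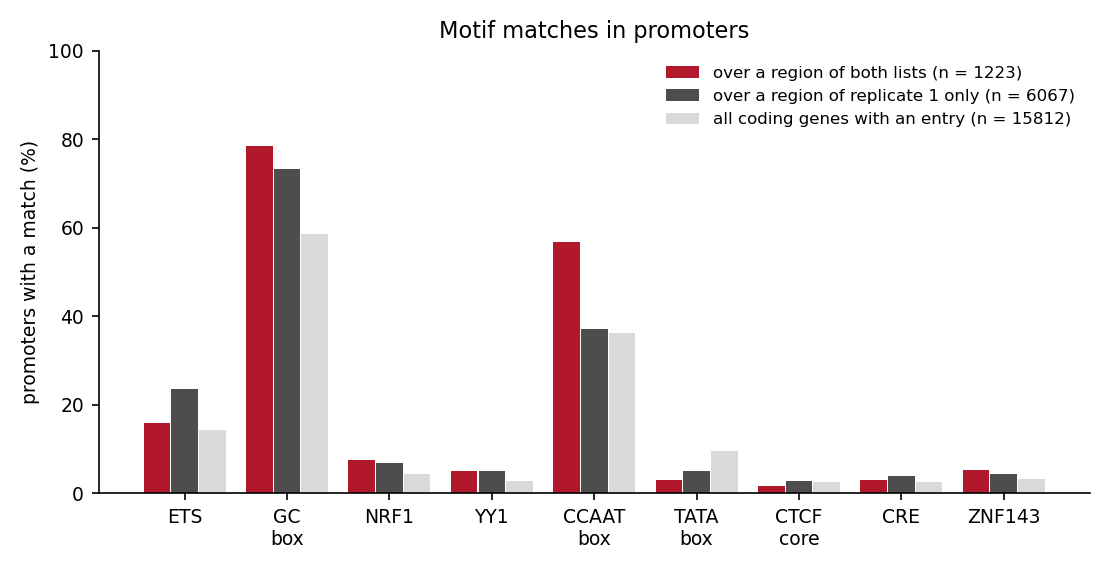
Share of promoters (y axis, %) with at least 1 match to each of 9 motifs, for promoters over regions of both lists, over regions of replicate 1 only and for all coding genes with an entry; bars carry no error because promoters are counted, not sampled. The CCAAT box is at 56.7%, 37.0% and 36.3% in the 3 sets.

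A region stood within 2 kb of an end of 1587 of 19974 protein-coding genes (7.95%). Regions of replicate 1 only stood at 8540 genes (42.8%). Among the 7812 genes with H3K27ac at an end, 1481 (19%) had a region of both lists. The gene lists below count regions within 2 kb of a gene end and are read beside these shares, without a test. Regions deeper inside a gene are not counted.

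Among RNA-binding and splicing factors, the class to which Matrin 3 belongs, 5 of 25 genes had a region. HNRNPL, a splicing repressor and activator, had maxima of 290 in replicate 1 and 17 in replicate 2, and HNRNPA2B1 had 235 and 15. HNRNPA1 had 185 and 8, and SFPQ, a paraspeckle protein, had 107 and 6. SRSF2, an SR protein, was the weakest with 63 and 6. H3K27ac was called at an end of 24 of these 25 genes. MATR3 itself had no region of both lists and 2 peaks in replicate 1.

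Among CTCF and cohesin genes, 4 of 16 had a region. ZNF143, a promoter-binding zinc finger factor, had maxima of 194 in replicate 1 and 14 in replicate 2. STAG1, a cohesin subunit, had 134 and 13. CTCF had 229 and 12, and ESCO2, a cohesin acetyltransferase, had 98 and 7. SATB1 had 7 peaks in replicate 1 and none in replicate 2.

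Among cell cycle genes, 5 of 20 had a region at an end: CDK2 (337 and 12), E2F3 (175 and 13), PCNA (152 and 11), CDK4 (100 and 8) and CCND3 (48 and 8), with the replicate 1 maximum first. Regions inside CDK6 and RB1, away from their ends, are not in this count, and the RB1 region carries none of CTCF, H3K27ac and SATB1. DNA repair had 4 of 20, among them the checkpoint kinase ATM with 150 and 11, the end-joining factor XRCC4 with 177 and 8, and TP53BP1 with 153 and 7. The immediate-early list had 4 of 20. MYC had 80 and 13, JUND 53 and 9, EGR2 83 and 8, and JUN 172 and 6.

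By mean percentile over both lists, the highest of all listed genes was NPM1, the nucleolar protein nucleophosmin, with maxima of 256 in replicate 1 and 25 in replicate 2. Ribosome biogenesis had 3 of 20 genes, NPM1, WDR74 (83 and 12) and RRP9 (151 and 7). Nuclear matrix and lamina genes had 3 of 16: TPR (137 and 14), a protein of the nuclear pore basket, LMNB1 (133 and 9), lamin B1, and EMD (101 and 8), emerin. Cytosolic ribosomal protein genes had 2 of 20, RPL7 and RPS27A, although 19 carried H3K27ac. Mitochondrial ribosomal protein genes had 1 of 20, MRPS30.

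Of the T cell lists, T cell receptor signalling had 2 of 20 (10%, against 7.95% of all coding genes), the CD3E chain of the receptor complex (55 in replicate 1 and 10 in replicate 2) and the adhesion molecule CD2 (50 and 8). Both were among the 17 of the 20 with H3K27ac at an end, and 19% of all coding genes with H3K27ac at an end had a region. T-lineage transcription factors had 0 of 20 at an end, with H3K27ac at 15. Regions inside these genes, such as 1 in NOTCH1 and 5 in MYB, are not in this count. Of those in MYB, 3 carry none of the 3 targets, a group described below. No region stood at an end of any of 12 B cell, 14 myeloid, 12 neuronal or 12 epithelial and stromal markers or of 20 zinc finger genes of chromosome 19. The erythroid list had 1 of 12, EPOR, and the histone list 1 of 20, H3C2. Every listed gene with a region at an end carried SATB1, CTCF and H3K27ac there, where all 3 lay over 1019 of all 1220 regions at gene ends (83.5%).

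By chromosome, the share of Matrin 3 regions called in both lists was 6.78% overall. It was highest on chromosome 19, with 109 of 913 regions (11.9%), and on chromosome 7, with 137 of 1283 (10.7%). It was lowest on chromosomes 22 (3.71%) and 20 (3.77%). The chromosome 7 count includes 12 regions in MET and 8 in BRAF that carry none of CTCF, H3K27ac and SATB1, described below.

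SATB1 was not called over 223 regions. Of these, 133 (59.6%, interval 53.1% to 65.9%) lay at a gene end, against 74.0% of the regions with SATB1. A further 72 (32.3%) lay inside genes, against 17.4%. CTCF lay over 172 (77.1%, against 99.0%) and H3K27ac over 135 (60.5%, against 93.2%). The regions were weaker in replicate 1, with a median maximum of 58 against 115. Their median width was 1328 bp, against 1575 bp for regions with SATB1. Part of the gaps went with rank. Of the regions with replicate 1 maxima of at least 73, 83 lacked SATB1 and 1150 carried it. CTCF lay over 97.6% of these 83 and 99.8% of the 1150, and a gene end was at 78.3% and 80.2%. H3K27ac lay over 79.5% and 93.7%, so only its gap stayed wide among these 3 measures. The 83 were still weaker in replicate 1, with a median maximum of 100 against 131.5 for the 1150.

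The 223 regions fell into a group of 176 with CTCF or H3K27ac and a group of 47 with none of the targets. Of the 176, 73.9% lay at a gene end, near the 74.0% of the regions with SATB1. CTCF lay over 97.7% and H3K27ac over 76.7%, and the median maximum was 68 in replicate 1 and 8 in replicate 2. The SATB1 call is also a matter of threshold: 41 of the 223 regions had a peak in 1 SATB1 list and 25 in the other.

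USF3, of the basic helix-loop-helix family, was the strongest gene end without SATB1, with maxima of 172 in replicate 1 and 18 in replicate 2. PSAT1, an enzyme of serine synthesis, had 152 and 16. NDUFS8, a core subunit of complex I, had 138 and 15 in a region it shares with ALDH3B1. The region of ITFG1 and PHKB had 113 and 15, and PANK2, the mitochondrial pantothenate kinase, had 97 and 15. None of these reached the maxima of the 10 strongest regions with SATB1.

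SRPRA, a subunit of the signal recognition particle receptor, shares a region with FOXRED1 that had 138 and 12. ING3, of a histone acetyltransferase complex, had 107 and 12. A region at an end of LGSN and inside PTP4A1 had 154 and 11. CHCHD3, of the mitochondrial cristae complex, had 133 and 11, and HDAC11, a histone deacetylase, had 121 and 11. Of these 10 regions, USF3, PSAT1, NDUFS8 and HDAC11 had no SATB1 peak in either list. CTCF was called over USF3 in 1 of 3 shSATB1 libraries and over CHCHD3 in 0 of 3, while all 3 shCtrl libraries called both; the other 8 had CTCF in all 6 libraries.

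Of the 47 regions with none of the targets, 43 lay within the bodies of 24 genes, which were picked out after their values were seen. MET, a receptor tyrosine kinase, held 12 of them over 64.2 kb, with maxima of 9 to 19 in replicate 1 and 8 to 19 in replicate 2. BRAF, a kinase of the MAP kinase cascade, held 8 over 26.1 kb, with maxima of 9 to 14 and 8 to 16. MYB held 3 and BCOR held 2. EGFR, ATRX, NF1 and FGFR3 were among those with 1. Next to the chromosome 1 region at the mitochondrial copies, the highest in rank were FBXW7 (24 in replicate 1 and 15 in replicate 2), RB1 (26 and 12), a MET region (17 and 19) and a region of the imprinted genes PEG3 and ZIM2 (17 and 18).

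These regions differed from the rest in the balance of the lists. Their median ratio of maximum signal, replicate 2 over replicate 1, was 0.933, against 0.0826 for the 1644 regions with at least 1 other target. The percentile in replicate 2 was above that in replicate 1 for 40 of the 47, against 27 of the 1644. The same 24 genes held 70 of the 370 regions of replicate 2 only (18.9%) and 0.232% of the regions of replicate 1 only, while making up 0.273% of the length of coding gene bodies. Regions of replicate 2 only were most numerous inside FGFR2 (12), EGFR (10), NTRK2 (10), NTRK3 (10), BRAF (9) and ATRX (8). These are genes that tumour sequencing panels often include, and whether reads of another kind of library entered replicate 2 was not tested. The 47 regions may not reflect Matrin 3, which was not tested either, and the main shares are given with and without them. Without the 47, the share at a gene end was 74.0%, with CTCF 98.9%, with H3K27ac 91.4% and with SATB1 89.3%. The shares of the targets rise by definition, because the 47 carry none of them.

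The knockdown libraries, which took no part in choosing the regions, asked whether CTCF and H3K27ac were called over them as often after SATB1 knockdown. CTCF was called over 84.0%, 87.2% and 90.4% of the regions in the shSATB1 libraries, against 96.1%, 95.8% and 96.6% in the shCtrl libraries. The groups did not overlap. The means were 87.2% ± 3.19 in shSATB1 and 96.2% ± 0.420 in shCtrl (SD, n = 3 each), a difference of -8.99 percentage points (two-sided exact permutation p = 0.1, the smallest that 3 against 3 libraries allow). The shSATB1 CTCF lists were shorter, 14695 to 20284 peaks against 31141 to 32540, and with every list cut to the shortest the difference was -3.77 points.

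Where CTCF was called, its peaks also ranked lower within their own list. The median percentile of maximum signal over the regions was 78.2 ± 2.40 in shSATB1 and 87.5 ± 0.522 in shCtrl (SD, n = 3 each, two-sided exact permutation p = 0.1). The percentile is set within each list and so depends on the length of that list.

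CTCF was called more often over regions with SATB1 than over regions without it, in both arms. CTCF was called over 91.2% ± 3.00 in shSATB1 and 99.0% ± 0.239 in shCtrl of the regions with SATB1. Over the regions without SATB1 the shares were 61.0% ± 4.48 in shSATB1 and 77.6% ± 1.62 in shCtrl (SD, n = 3 each). The gap, with minus without SATB1, was 30.2 points in shSATB1 and 21.4 points in shCtrl, a difference of 8.76 points (two-sided exact permutation p = 0.1). It was 5.82 points with the lists cut to the shortest, and 12.6 points without the 47 regions that carry no target. The 47 are defined partly by their lack of shCtrl CTCF calls. Leaving them out therefore raises the shCtrl share by choice, and the wider difference cannot be read as a result.

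Regions of replicate 1 only had CTCF calls in 34.9%, 42.1% and 47.3% in shSATB1 and in 69.3%, 69.4% and 72.0% in shCtrl. The gap between regions of both lists and regions of replicate 1 only was 45.7 points in shSATB1 and 25.9 points in shCtrl, a difference of 19.8 points (two-sided exact permutation p = 0.1). In the top 10% of replicate 1 the difference was 9.11 points, and with all CTCF lists cut to the shortest it was 1.08 points.

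**Figure D5:**
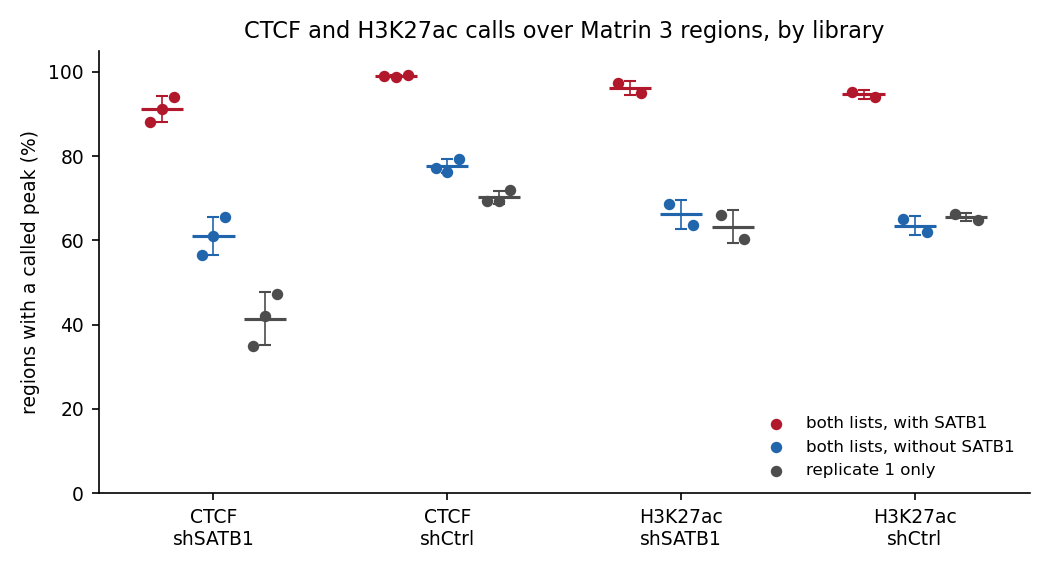
Share of regions with a called CTCF or H3K27ac peak (y axis, %) in each library, shSATB1 left of shCtrl for each target; points are libraries, lines are means and error bars are SD (n = 3 for CTCF, n = 2 for H3K27ac). CTCF points of shSATB1 lie below all shCtrl points in each set, and H3K27ac points of the regions with and without SATB1 overlap between the arms.

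Region by region, 73 regions (4.32%) had CTCF called in all 3 shCtrl libraries and in none of shSATB1, against 14.4% of all Matrin 3 regions. The reverse was seen at none of them and at 0.00401% of all. CTCF was called in all 6 libraries over 1393 regions (82.4%, against 35.7% of all). By mean shCtrl percentile, the CTCF peaks called only in shCtrl were led by a region inside CIC, a transcriptional repressor gene, at percentile 96.9 ± 0.414. Next were the chromosome 1 region with mitochondrial copies at 94.4 ± 0.508, CMC1 at 80.5 ± 3.68, EIF3E, a translation initiation factor subunit, at 78.0 ± 5.15, and CCDC30 with PPCS at 72.3 ± 4.19 (SD, n = 3 each). The CIC region was weak in Matrin 3, with maxima of 11 in replicate 1 and 6 in replicate 2.

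H3K27ac was called over 93.6% and 90.9% of the regions in shSATB1 and over 91.3% and 89.7% in shCtrl. The libraries overlapped. The difference was 1.71 percentage points (two-sided exact permutation p = 0.667, where 2 against 2 libraries allow no p below 0.333). Leaving out 1 library moved it over 0.384 points (without shSATB1 replicate 1), 0.917 (without shCtrl replicate 2), 2.51 (without shCtrl replicate 1) and 3.05 (without shSATB1 replicate 2). The gap between regions with and without SATB1 was 30.0 points in shSATB1 and 31.2 points in shCtrl, a difference of -1.12 points (two-sided exact permutation p = 0.667) that turned to 0.185 without shSATB1 replicate 1. The gap between regions of both lists and of replicate 1 only was 29.0 points in shSATB1 and 24.99 points in shCtrl (difference 4.002, two-sided exact permutation p = 0.333), and the difference was 0.235 points in the top 10% of replicate 1. Where H3K27ac was called, its median percentile over the regions was 80.7 and 77.9 in shSATB1 and 75.8 and 74.7 in shCtrl. These libraries did not overlap (means 79.3 ± 2.03 and 75.2 ± 0.743, SD, n = 2 each, two-sided exact permutation p = 0.333). Over regions of replicate 1 only the mean was 61.6 in shSATB1 and 64.0 in shCtrl. This percentile, too, depends on the length of each list.

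H3K27ac was called in both shSATB1 libraries and no shCtrl library over 19 regions (1.12%, against 1.29% of all Matrin 3 regions). It was called in both shCtrl libraries and no shSATB1 library over 6 (0.355%, against 2.23%). All 4 libraries called it over 1469 regions (86.9%, against 55.4%). The regions called only in shSATB1 were led by RPS6KA2, a kinase downstream of MAP kinases, at percentile 62.7 ± 15.1, DCAF4 at 58.6 ± 9.25, and the imprinted pair SGCE and PEG10 at 52.1 ± 24.7. HTT, the huntingtin gene, followed at 50.2 ± 16.1 and MYORG at 44.3 ± 7.77 (SD, n = 2 each).

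The 6 regions with H3K27ac only in shCtrl were led by chr1:117048981-117049613 outside genes at 45.3 ± 1.94, IGSF9B at 36.3 ± 11.8, and SEPTIN2 with FARP2 at 34.7 ± 13.996. TCTN3 with ENTPD1, which encodes the ectonucleotidase CD39, was at 30.4 ± 12.3, and NR4A1, a nuclear receptor induced by T cell receptor signals, at 28.5 ± 9.74 (SD, n = 2 each). The SEPTIN2 region was among the strong Matrin 3 regions, with maxima of 181 in replicate 1 and 24 in replicate 2.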

How the data were processed

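CUT&Tag peaks of 14 Jurkat libraries were used as the authors deposited them. The submitters' processing notes name SEACR, deepTools, Bowtie2, Trim Galore and SAMtools on GRCh38, and MACS2 too for every target but Matrin 3; versions, roles and thresholds are not given in the sources used here. Each deposited peak carries a total and a maximum signal in whole-number coverage, with no scaling stated, so signal was compared only within a list, as a percentile of the maximum. Depth is unknown.

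Overlap meant at least 1 bp on chromosomes 1 to 22 and X. The SATB1 set took regions in both lists, CTCF at least 2 of 3 shCtrl lists, and H3K27ac both. Gene ends, starts, pseudogenes and promoters came from RefSeq (GRCh38.p14), with 15812 of 19974 coding genes matched to a promoter. Shares carry 95% Wilson intervals. Arms were compared on 1 share, 1 gap or 1 median percentile per library by two-sided exact permutation tests. No adjustment was made over these tests, none of which could fall below 0.05. Overlap code was tested on simulated intervals. Python 3.11.15, pandas 2.3.3, numpy 2.4.6 and scipy 1.17.1 were used.

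The regions, gene lists and motifs were chosen with earlier results of these data known. Named regions were the 10 highest at gene ends, the 10 highest without SATB1, the 5 widest, up to 4 genes per list (in the text, all), the 5 highest outside genes or with none of the targets, and up to 5 by percentile where an arm differed in all libraries. The highest of all, the 24 genes and the regions of replicate 2 only were added after their values were seen. Some named members are not reported here.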

Additional observations from a re-analysis of the deposited data

How the results depend on the processing

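Leaving out the 47 regions with none of the targets and taking the top 10% of replicate 1 alone were alternatives chosen after seeing the data. With replicate 1 cut to the length of replicate 2 the shares were 80.8% at a gene end, 99.7% with CTCF, 92.7% with H3K27ac, 93.6% with SATB1 and 0.0864% with none. With each Matrin 3 list cut at its median maximum they were 80.6%, 99.4%, 92.2%, 92.2% and 0.362%, in the same order. A 5 kb window gave 75.4% at a gene end, and gene starts alone 65.7%. H3K27ac in either list gave 92.3% and SATB1 in either list 90.7%. Without the 47 regions, which by definition carry none of these targets, CTCF was at 98.9%, H3K27ac at 91.4% and SATB1 at 89.3%. Leaving out 1 list at a time gave 37.6% to 59.0% at a gene end, 73.4% to 96.0% with CTCF, 64.2% to 91.3% with H3K27ac, 45.6% to 89.2% with SATB1 and 12.7% to 20.3% with none; the lowest of the first 4 and all of the last came from leaving out a Matrin 3 list, where the regions are those of the other list. The median width was 550 bp for the shared part and 555 bp for replicate 2 peaks. The count of regions was 1157 to 1689 and of genes 1236 to 1766. For the arms, leaving out 1 library gave -10.6 to -7.38 points for CTCF and 0.384 to 3.05 for H3K27ac. The gap by SATB1 ran over 7.99 to 9.51 and -2.43 to 0.185 points, and the gap to replicate 1 only over 18.1 to 21.1 and 2.53 to 5.48. The replicate block left the differences at -8.99, 8.76 and 19.8 (p = 0.25 by exact sign flips, the smallest 3 pairs allow) and at 1.71, -1.12 and 4.002 (p = 0.5, the smallest 2 pairs allow). After each library was centred on its arm, correlations between same-numbered libraries over merged regions were -0.0251, 0.00328 and -0.0350 for CTCF and 0.0130 for H3K27ac. Centring with so few libraries per arm constrains these values, so they cannot show whether the numbers pair the libraries. Unknown depth limits every comparison of lists, and a region that was not called may still hold signal under the threshold.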
